A study of Mus musculus with 10 samples.

Results

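The protocadherin genes were taken as every probe, control probes aside, whose RefSeq transcript belongs to a gene with a symbol starting with Pcdh. The rule gave 42 genes on 63 probes, out of 18535 named genes and 41174 probes on the array. The name table, RefSeq of assembly GRCm38.p6, holds 70 protocadherin genes, of which 28 had no probe that could be matched. All 22 beta genes were covered, but only 4 of 14 alpha genes and 5 of 22 gamma genes were. Of the non-clustered genes, 11 of 12 had a matched probe and Pcdh11x had none.

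The data are 10 dual dye arrays, each carrying left-hemibrain RNA from its own male C57BL/6J mouse. All mice were single-housed from 3 weeks of age, ate either the fish oil enriched diet (FD) or the standard lab diet (SD) for about 20 weeks, and were 5 months old at collection. In the diet entries every Cy-5 sample is FD, yet the sample descriptions call the same mice controls, and the methods count 4 arrays of FD-fed and 3 of SD-fed mice, so that no array could be assigned to a diet and no diet comparison was made. The Cy-3 RNA is a pool of SD hemibrains in some labels and a commercial reference RNA in the methods and in the labeling protocol. A hemibrain mixes every region and cell type of one side of the brain. In such bulk tissue, fewer cells of a type and less RNA per cell cannot be told apart.

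Values are log2 of the processed Cy-5 signal (hemibrain) over the processed Cy-3 signal after loess within each array, so 1 on this scale is a 2-fold ratio. A gene was represented by its brightest probe. By the labels the Cy-3 RNA was the same on every array and no dye swap is labelled, so hemibrain RNA and dye cannot be told apart and ratios are described without a test. A probe is called detected in a dye where the scanner software flagged it as well above background, and not detected otherwise.

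Marker genes were set against the labels first. All 8 neuronal and all 6 oligodendrocyte markers were over 2-fold higher in Cy-5 on every array, as were 5 of 6 astrocyte, 3 of 6 microglial, 4 of 6 endothelial and 3 of 6 choroid plexus markers. All 6 proliferation markers and 5 of 6 fibroblast and meningeal markers were over 2-fold higher in Cy-3 on every array, as was the choroid plexus marker Aqp1. The Cy-3 values go against a label of pooled hemibrain, and the Cy-3 RNA is called the reference here. Array C10-434 had the weakest Cy-5 signal, with a median background-subtracted signal of 28.5, where the other arrays reached up to 171, and 49.8% of its probes were detected in Cy-5, against 68.2% to 76.9%. In Cy-3, 61.9% of its probes were detected, against 70.3% to 79.1% on the other arrays.

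Protocadherins are cell adhesion proteins of the cadherin superfamily and are best known from the nervous system. The clustered genes lie side by side in alpha, beta and gamma arrays. Each variable exon has its own promoter, and the choice among promoters, which involves CTCF and cohesin, gives a neuron its own combination of surface proteins. These proteins bind like to like between cells and underlie dendrite self-avoidance. The non-clustered genes, most of them of the delta group, stand apart from the clusters and act in axon growth, cell sorting and synapse remodeling.

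The 250 bases before the annotated start are shown for 3 non-clustered genes with a median log2 ratio above 7 in the hemibrain data below and for the 2 that were over 2-fold lower, 5′ to 3′ on the gene's strand, from RefSeq promoter windows of build GRCm38.p6. Capitals mark matches to 3 short motifs. These are the CCAAT box, read as ATTGG on the opposite strand, the TATAAA form of the TATA box, read as TTTATA on the opposite strand, and the GGGCGG form of the GC box, read as CCGCCC on the opposite strand. Both strands were searched and no matches overlapped.
Pcdh8, chr14:79771313-79771562, minus strand: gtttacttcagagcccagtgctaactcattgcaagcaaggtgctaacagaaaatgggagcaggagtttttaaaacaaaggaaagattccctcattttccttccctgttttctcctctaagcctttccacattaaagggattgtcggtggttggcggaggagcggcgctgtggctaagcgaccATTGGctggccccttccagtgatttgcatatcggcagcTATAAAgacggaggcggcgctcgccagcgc
Pcdh20, chr14:88471397-88471646, minus strand: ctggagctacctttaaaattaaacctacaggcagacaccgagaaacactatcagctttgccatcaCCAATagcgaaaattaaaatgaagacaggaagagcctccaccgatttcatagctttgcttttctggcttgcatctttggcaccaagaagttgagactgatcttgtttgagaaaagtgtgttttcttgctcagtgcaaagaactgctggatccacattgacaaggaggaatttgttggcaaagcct
Pcdh17, chr14:84443313-84443562, plus strand: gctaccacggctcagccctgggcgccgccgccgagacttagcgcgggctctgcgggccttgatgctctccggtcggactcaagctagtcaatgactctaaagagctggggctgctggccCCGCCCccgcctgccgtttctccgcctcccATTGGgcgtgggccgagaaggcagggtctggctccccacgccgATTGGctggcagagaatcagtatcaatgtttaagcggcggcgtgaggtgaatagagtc
Pcdh18, chr3:49757317-49757566, minus strand: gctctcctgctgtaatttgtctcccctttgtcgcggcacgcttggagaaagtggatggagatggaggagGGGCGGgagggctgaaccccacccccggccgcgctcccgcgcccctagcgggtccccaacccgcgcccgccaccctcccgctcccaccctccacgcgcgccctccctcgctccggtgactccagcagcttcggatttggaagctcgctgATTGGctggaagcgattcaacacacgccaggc
Pcdh7, chr5:57717831-57718080, plus strand: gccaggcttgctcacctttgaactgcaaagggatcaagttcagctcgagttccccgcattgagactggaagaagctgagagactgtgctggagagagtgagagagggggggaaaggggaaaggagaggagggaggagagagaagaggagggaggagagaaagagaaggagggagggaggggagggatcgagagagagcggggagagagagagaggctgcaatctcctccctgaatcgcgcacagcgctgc
Promoter windows were at hand for 9 of the 11 non-clustered genes with a probe. CCAAT was found in 8 of the 9, all but Pcdh7, against 33.8% of 32851 windows of this length. The GC box GGGCGG was found in 4 of 9 (Pcdh10, Pcdh17, Pcdh18 and Pcdh19), against 32.7% of windows, and TATAAA in 2 of 9 (Pcdh8 and Pcdh15), against 12.4%. The windows held from 3 CpG dinucleotides, in Pcdh20, to 23, in Pcdh18, where the median of all windows was 6. Pcdh17, with a high Cy-5/Cy-3 ratio, and Pcdh18, with a low one, both held CCAAT and a GC box. Pcdh8 and Pcdh20, both with high ratios, differed in TATAAA. These matches are letters in a window and were not tested as binding sites. Of the 9 genes, 4 (Pcdh8, Pcdh17, Pcdh20 and Pcdh9) lie on chromosome 14, Pcdh10 and Pcdh18 on chromosome 3 and Pcdh15 on chromosome 10.

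Across the family, 14 of 42 genes (33.3%) were over 2-fold higher in Cy-5 on every array and detected in Cy-5 on every array, where the background over all 18535 named genes was 16.4%. By the same rule 2 of 42 (4.76%), Pcdh18 and Pcdh7, were over 2-fold higher in Cy-3, where the background was 13.2%. The other 26 genes met neither rule. In the non-clustered set 6 of 11 genes were higher in Cy-5 and 2 of 11 were lower. In the clustered set 8 of 31 were higher and 0 of 31 were lower. The median over all protocadherins ran from 0.97 to 1.59 over the arrays (median 1.26), while that of all named genes ran from 0.08 to 0.20. Without C10-434, 18 protocadherins were over 2-fold higher in Cy-5, where the background was 18.4%, and the 4 added were Pcdha4, Pcdhb4, Pcdhb9 and Pcdhb10. With normexp background correction and an offset of 50, the counts were 3 in Cy-5 (Pcdh17, Pcdhac2 and Pcdhga9) and 0 in Cy-3. The Cy-5 background fitted by normexp was below 0 on every array and reached -2836 on C10-413. With only probes detected in both dyes on every array, which left 21 protocadherins, the counts were 8 and 1. No share over all named genes stands beside the counts with normexp or with these probes.

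**Figure D1:**
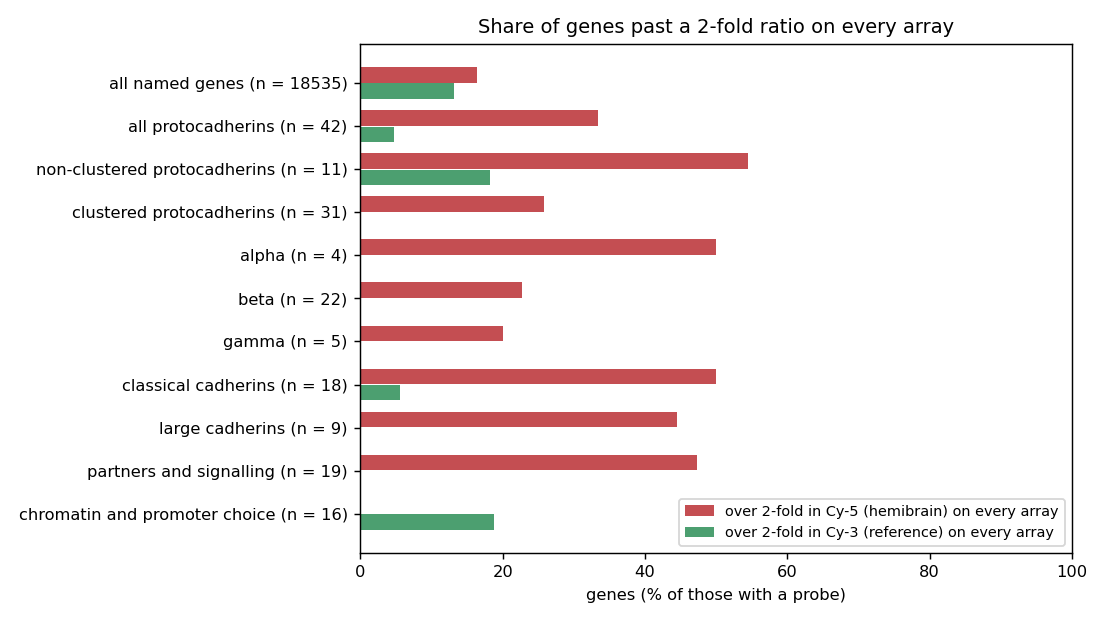
Share of genes (%, horizontal axis) past a 2-fold ratio on every array and detected in the brighter dye on every array, higher in Cy-5 (hemibrain, red) or in Cy-3 (reference, green), with the number of genes of each set that had a probe. Protocadherins reach 33.3% in Cy-5 and 4.76% in Cy-3, against 16.4% and 13.2% of all named genes, and the clustered sets have no green bar.

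Pcdh8 (arcadlin), which is induced by neuronal activity and drives N-cadherin off the synaptic membrane, had a log2 ratio of 7.27 on the lowest array, 8.28 at the median and 10.10 on the highest. The Cy-5 signal was detected on all 10 arrays and ran from 3631 to 9255, whereas the Cy-3 signal was detected on 1 array, so the denominator of the ratio lay near background. Pcdh20, implicated in the placement of cortical neurons, gave 5.75, 7.33 and 9.11, again with Cy-3 detected on 1 of 10 arrays. Even the lowest of the 10 arrays lay far past a 2-fold ratio for both genes, and the arrays of each gene spanned over 2 log2 units. Their place in the family depended on the background handling, since with background-subtracted signals and a floor the medians were 5.64 for Pcdh8 and 4.55 for Pcdh20, under 6.36 for Pcdh17.

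Pcdh17 bundles axons by recruiting the WAVE complex to their contacts and also organizes synapses of the corticobasal ganglia circuit. Its brightest probe ran from 6.72 to 8.69 with a median of 7.25, and Cy-3 was detected on 9 of 10 arrays. C10-434 gave the value of 8.69, and the other 9 arrays lay between 6.72 and 7.58. The second Pcdh17 probe was not detected in Cy-3 on any array. Set against the lowest signal that was detected on each array, hemibrain RNA was at least 68.9-fold higher on that probe.

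Pcdh10 (OL-protocadherin), which binds Nap1 of the WAVE complex and takes part in synapse elimination, was measured by 3 probes on different RefSeq transcripts. The brightest probe ran from 4.18 to 5.83 with a median of 4.73 over the 8 arrays that had a value, and was detected in both dyes on all 10 arrays. C10-434 was again the highest, and the other arrays lay between 4.18 and 4.89. The other probes had medians of 5.74 and 7.21. The probe at 7.21 was not detected in Cy-3 on any array, and hemibrain RNA there was at least 76.5-fold higher.

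Pcdh9, a delta gene expressed in neurons, ran from 4.32 to 5.25 with a median of 4.72 over the 9 arrays with a value, and its other probes had medians of 5.01 and 4.12. Pcdh15, which with Cdh23 forms the tip links of inner ear hair cells, ran from 3.74 to 5.65 with a median of 4.06. Its value of 5.65 was on C10-434, and the other 9 arrays lay between 3.74 and 4.53. Cy-3 was detected on 7 of 10 arrays for this Pcdh15 probe. With background-subtracted signals and a floor the Pcdh15 median was 2.39, against 4.14 for Pcdh10 and 4.20 for Pcdh9. On the brightest probes, no array of Pcdh8, Pcdh20, Pcdh17, Pcdh10, Pcdh9 or Pcdh15 came near the 2-fold line, while the lowest array of a dimmer probe read 1.18 for Pcdh9 and 0.99 for Pcdh15. In the order of the medians, the ranges of Pcdh8, Pcdh20 and Pcdh17 overlapped, those of Pcdh10, Pcdh9 and Pcdh15 overlapped, and the lowest array of Pcdh17, at 6.72, lay above the highest array of Pcdh10, at 5.83.

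The remaining non-clustered genes had medians below 1. Pcdh12 (VE-cadherin-2), a protocadherin of endothelial cells, ran from -0.63 to 2.04 with a median of 0.77, and was detected in Cy-5 on 7 of 10 arrays, not on C10-413, C10-415 or C10-434. Its arrays fell on both sides of 0. A second probe on the same transcript ran from -0.02 to 3.18 with a median of 1.50 and was detected in Cy-5 on 8 arrays. The 6 endothelial markers had medians from -0.03 (Pecam1) to 5.38 (Cldn5) on the same arrays.

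Pcdh1, an adhesion protein also known from airway epithelium, ran from -0.18 to 0.42 with a median of 0.14, which turned to -0.09 without loess and in the deposited table and to -0.11 with arrays centred on their medians. Pcdh19, the X-linked gene of a clustering epilepsy, ran from -0.84 to -0.17 with a median of -0.45. Pcdh1 and Pcdh19 were detected in both dyes on all 10 arrays. Pcdh19 was thus below 0 on every array and past the 2-fold line on none. Its second probe, on another RefSeq transcript, ran from -1.14 to 0.62.

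Pcdh18, which binds the reelin adaptor Dab1, and Pcdh7 (NF-protocadherin), which binds the Set protein, were the genes over 2-fold higher in Cy-3. Pcdh18 ran from -2.54 to -1.81 with a median of -2.03, and was detected in both dyes on all 10 arrays. The brightest Pcdh7 probe ran from -3.88 to -3.09 with a median of -3.54. C10-434 had the lowest Pcdh18 value and the highest Pcdh7 value. All 10 arrays of both genes lay below the 2-fold line, and every Pcdh18 array lay above every array of this Pcdh7 probe. The Cy-5 signal of this Pcdh7 probe ran from 63.7 to 134 and was not detected on C10-434. With background-subtracted signals and a floor the medians were -2.32 for Pcdh7 and -1.67 for Pcdh18.

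**Figure D2:**
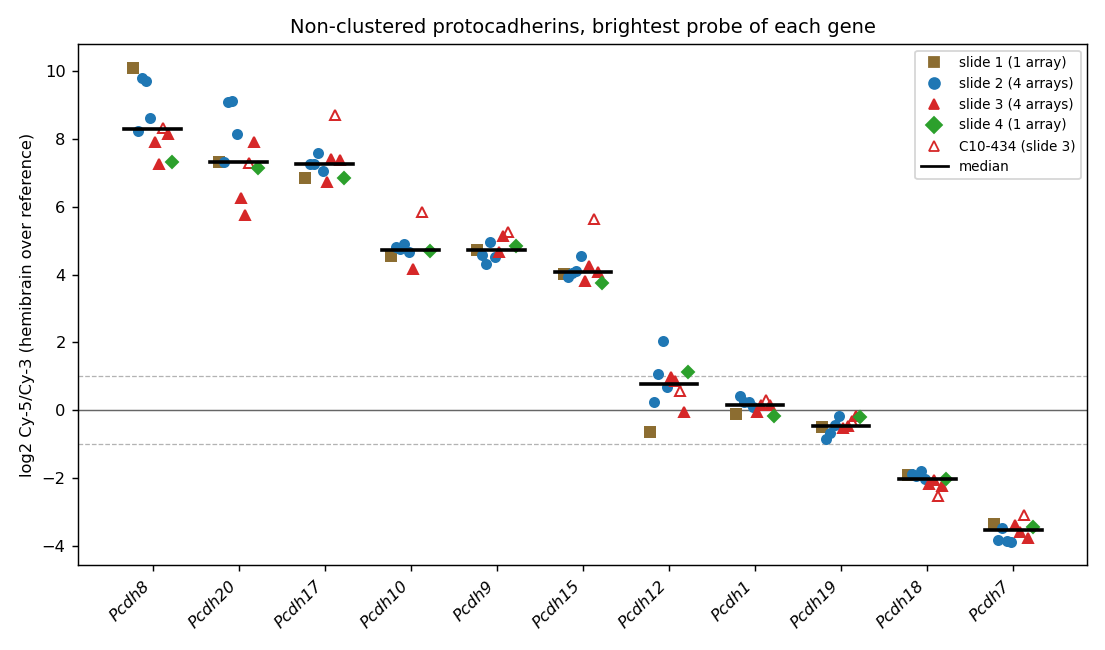
log2 Cy-5/Cy-3 (vertical axis) of the brightest probe of each of the 11 non-clustered genes, 1 point per array, colored by slide, with the median as a bar and dashed lines at a 2-fold ratio. The 6 genes on the left lie between 3.74 and 10.10 on every array, Pcdh18 and Pcdh7 lie between -3.88 and -1.81, and the open triangle of C10-434 stands above the other arrays for Pcdh17, Pcdh10 and Pcdh15.

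Among the clustered sets, the alpha genes had the highest median ratio. The median over the 4 genes with a probe ran from 2.81 to 3.55 over the arrays, with a median of 3.24. Pcdhac2, the C-type alpha isoform that is needed for the tiling of serotonergic axons, had 3 probes with medians of 3.81 (the brightest), 4.84 and 3.24, all detected in both dyes on all 10 arrays. The brightest ran from 3.21 to 5.16, with 5.16 on C10-434 and the other arrays between 3.21 and 4.10.

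Pcdha9, the highest alternate alpha isoform, ran from 2.99 to 4.14 with a median of 3.51. Pcdha4 ran from 1.73 to 3.63 with a median of 2.99, and was detected in Cy-5 on every array but C10-434. Pcdha6, the lowest of those detected in Cy-5 on all 10 arrays, ran from 0.73 to 2.04 with a median of 1.61. All 4 alpha genes were above 0 on every array, and the highest array of Pcdha6 lay below the lowest array of Pcdha9 and of Pcdhac2. The alpha transcripts share constant exons, and the probe sequences were not at hand, so it was not tested which of these probes read a single isoform.

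The 22 beta genes, each a single exon without a constant part, had a median that ran from 0.89 to 1.44 over the arrays (median 1.11). Over 2-fold on every array were 5 of 22, namely Pcdhb3, Pcdhb7, Pcdhb12, Pcdhb16 and Pcdhb20, and none was over 2-fold lower. Pcdhb12 ran from 2.91 to 3.85 with a median of 3.15, with Cy-3 detected on 6 of 10 arrays, and Pcdhb3 from 2.67 to 3.64 with a median of 3.04, with Cy-3 detected on all 10. Their ranges overlapped, and with the floor their order turned, to 1.40 for Pcdhb12 and 1.97 for Pcdhb3.

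Pcdhb7 ran from 1.75 to 2.98 with a median of 2.37, and Pcdhb20 from 1.30 to 1.80 with a median of 1.61. Pcdhb10, Pcdhb4 and Pcdhb9 had medians of 2.79, 2.13 and 1.99 and no array below 1, and fell short of the count through 1 array, C10-434, where their Cy-5 signal was not detected. At the other end, Pcdhb22 ran from -0.72 to 0.37 with a median of -0.12 and Pcdhb21 from -0.97 to 0.34 with a median of -0.05, both detected in both dyes on all 10 arrays. Their arrays lay on both sides of 0. Pcdhb1 was not detected in Cy-5 on any array, and Pcdhb2 and Pcdhb11 were on 2 arrays each, so no direction is read from their ratios.

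Along the cluster, the beta genes Pcdhb1 to Pcdhb12 had a median ratio of 1.63 and Pcdhb13 to Pcdhb22 one of 0.99. Over the genes detected in Cy-5 on every array, these medians were 1.81 for 6 genes and 0.67 for 8 genes, with array medians of 1.39 to 2.25 and of 0.43 to 1.03. Spearman's rho between place and ratio over these 14 genes lay between -0.51 and -0.39 on the 10 arrays, which share the reference and the probes. The choice of the 14 rests on the Cy-5 signal, which is also the numerator of the ratio, and over all 22 genes rho was -0.16. The order was looked at after the values were seen and is a description.

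Of the 5 gamma genes, Pcdhga9 was over 2-fold higher in Cy-5 on every array. Its brightest probe ran from 1.51 to 2.30 with a median of 2.04, and the other 3 probes had medians of 2.13, 1.35 and 0.80. With the probes averaged, Pcdhga9 was no longer counted. Pcdhga4 ran from 0.45 to 1.00 with a median of 0.78, with all arrays above 0. Pcdhga7 and Pcdhga1 had medians of 0.65 and 0.02 and were not detected in Cy-5 on C10-434. Pcdhgb4, the only gamma B gene with a matched probe, was not detected in either dye on any array. The gamma genes also share constant exons, and which Pcdhga9 probes read them was not tested. The brightest reached a Cy-5 signal of 125397, and no spot on the arrays was marked saturated.

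**Figure D3:**
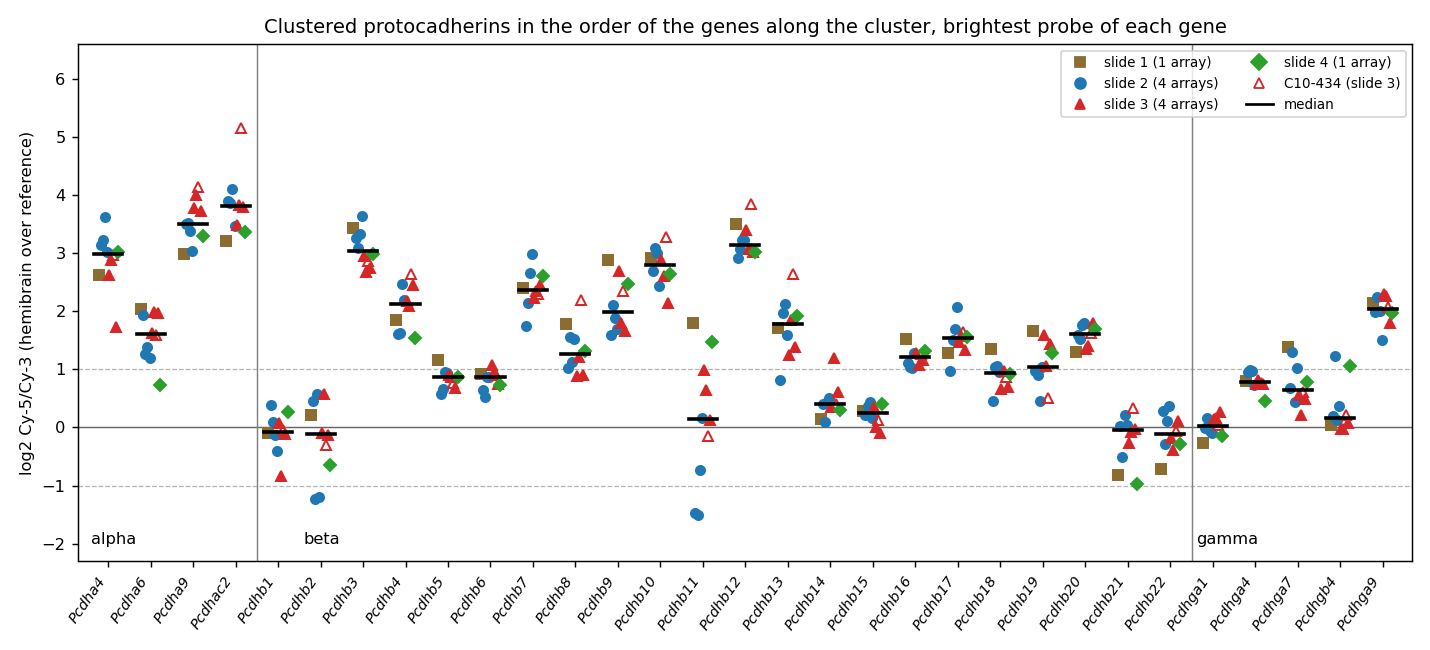
log2 Cy-5/Cy-3 (vertical axis) of the brightest probe of the 31 clustered genes in their order along the cluster, 1 point per array, colored by slide, with the median as a bar and dashed lines at a 2-fold ratio. The 4 alpha genes have medians of 1.61 to 3.81, Pcdhb3 and Pcdhb12 stand above the other beta genes at 3.04 and 3.15, and Pcdhb11 has the widest scatter.

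Probes of the same gene did not always give the same ratio. Of the 42 genes, 26 had 1 probe and 16 had more. In 8 of the 16, the ratios of some pair of probes differed by over 2-fold at the median of their differences over the arrays. No share over all genes with more than 1 probe stands beside this count, and it is not read as a trait of the family. Some of these probes lay near background, such as the second Pcdhb19 probe, detected in Cy-5 on 3 arrays. The largest difference at the median lay in Pcdh7, whose probes stand for different RefSeq transcripts. The brightest probe had a median of -3.54, but the other ran from -0.19 to 1.12 with a median of 0.53. The brightest was lower on 10 of 10 arrays, by 3.30 to 4.49 on the log2 scale. The call of Pcdh7 as higher in Cy-3 therefore holds for the probe of a single transcript. Both Pcdh7 probes were detected in Cy-3 on all 10 arrays and in Cy-5 on 9.

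Pcdhb16 was the only gene with a probe above 0 and another below 0 on every array. Its brightest probe ran from 1.02 to 1.53 with a median of 1.21, and the other from -1.20 to -0.36 with a median of -0.66, although both are assigned to the same transcript. The difference reached 2.40 on the log2 scale, with the brightest probe higher on 10 of 10 arrays, and was more than the spread of either probe over the arrays (SD 0.16 and 0.28, n = 10). Pcdhb16 was no longer counted as over 2-fold in Cy-5 without loess, with arrays centred on their medians, with background-subtracted signals and a floor, in the deposited table or with probes averaged.

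Pcdh15 also had probes on different transcripts, at medians of 4.06 and 1.78, and the second ran from 0.99 to 4.18. In Pcdhb13, the brightest probe had a median of 1.78. The other, at a median of 4.02, was not detected in Cy-3 on any array and was detected in Cy-5 on 9. On average over the arrays, hemibrain RNA there was at least 3.63-fold higher (log2 1.86), a bound close to the brightest probe's median. That average includes C10-434, where the ratio of this probe was 0.13 and its Cy-5 signal, 26.1, was the lowest, so the bound does not hold for that array. Beta genes are close paralogs, and cross-hybridization between them was not tested.

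**Figure D4:**
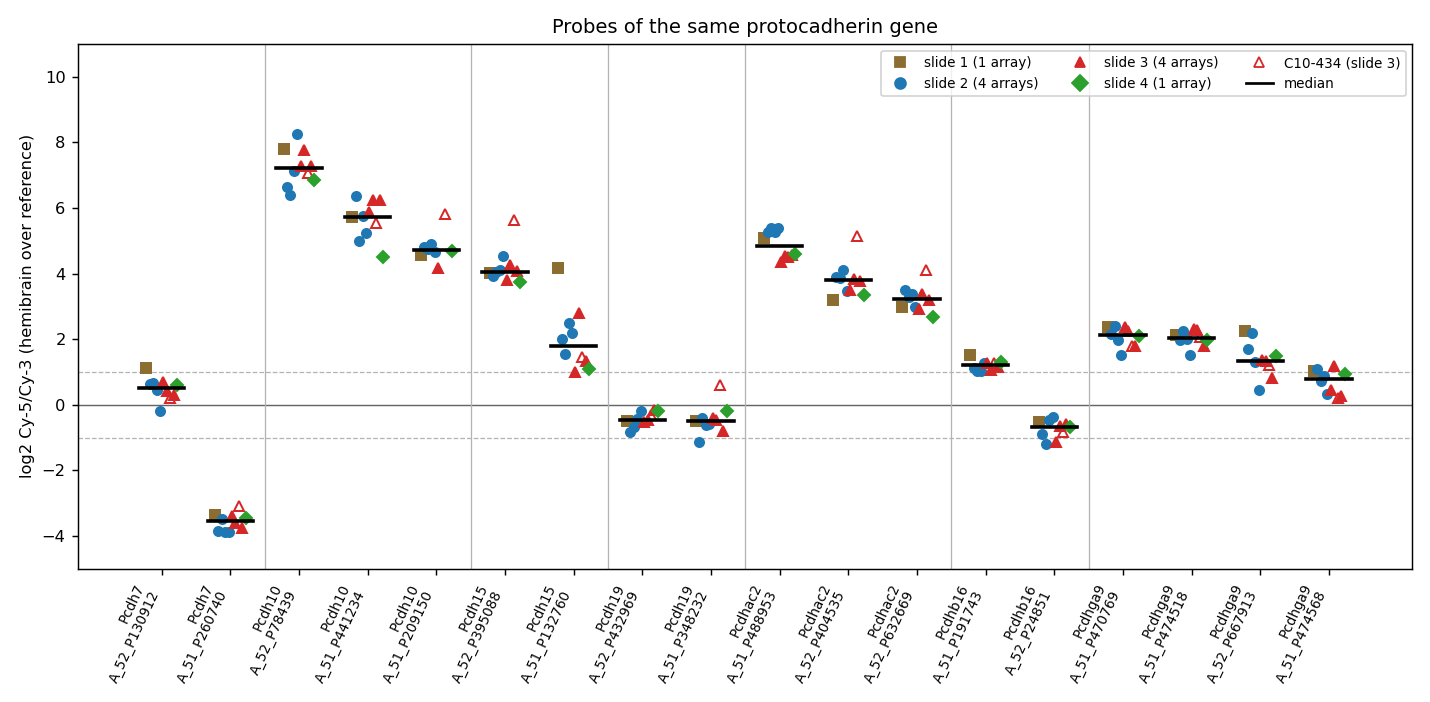
log2 Cy-5/Cy-3 (vertical axis) of every probe of 7 genes with more than 1 probe, 1 point per array, colored by slide, with the median as a bar and dashed lines at a 2-fold ratio. The Pcdh7 probes lie apart at medians of 0.53 and -3.54, the Pcdhb16 probes lie on opposite sides of 0, and the first Pcdhac2 probe splits into slide 2 above 5 and slide 3 below it.

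Detected in Cy-5 on every array were 28 of 42 protocadherins (66.7%), against 65.6% of all named genes. On C10-434, 14 protocadherins were not detected, of which 8 failed on that array alone. This share, 33.3%, stands beside 34.0% of all named genes. Of the 40 genes with a value on every array, C10-434 was the highest array for 11, while it was highest for 21.9% of all named genes. On the brightest probe, C10-434 had the lowest Cy-3 signal of the arrays for Pcdh17 (54.8), Pcdh15 (19.6), Pcdhac2 (643) and Pcdh10 (103). Its Cy-5 signal lay within the range of the other arrays for Pcdh17 and Pcdh15, and was the lowest for Pcdhac2 and Pcdh10. How far the weak signals of C10-434 in either dye set its high ratios for Pcdh17, Pcdh15, Pcdhac2 and Pcdh10 was not tested. The family as a set was not high on this array. In the 21 protocadherins detected in both dyes on every array, its median deviation from each gene's median was 0.03, against 0.05 for all such named genes. The standard deviation over the arrays had a median of 0.25 in the 21 protocadherins detected in both dyes on every array, from 0.16 in Pcdhb16 to 0.55 in Pcdhac2, and the median of all such named genes was also 0.25. In the other 21 protocadherins the median was 0.45. The widest ranges among the former were in Pcdhac2, Pcdh10 and Pcdhb21.

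Slide is the batch that the files name, and 2 slides held 4 arrays each. Of 63 protocadherin probes, 61 had values on all 8 of these arrays and were tested with limma. No probe passed an adjusted p of 0.05, where 0.0744% of all 40299 probes did, and 8 had an unadjusted p under 0.05, where 9.92% of all probes did. Arrays of the slides did not overlap for 6 of 61 probes, against 7.19% of all probes. The diets may differ between the slides, and slide and diet cannot be told apart.

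The smallest p belonged to a Pcdhac2 probe that read 5.28, 5.39, 5.28 and 5.38 on slide 2 and 4.36, 4.53, 4.52 and 4.57 on slide 3. The slides did not overlap, and slide 3 was lower by a log2 difference of -0.84 (SE 0.12, limma adjusted p = 0.0618). Among only the 19482 probes detected in Cy-5 on these arrays, of which 0.472% were called, the adjusted p was 0.0198 by limma. On the other Pcdhac2 probes the arrays of the slides overlapped. Pcdh17, on its dimmer probe, differed by -1.37 (SE 0.38, limma adjusted p = 0.231) and Pcdhb3 by -0.52 (SE 0.16, limma adjusted p = 0.275), in both cases with slide 3 lower and no overlap. That Pcdh17 probe was not detected in Cy-3 on any array. On the brightest Pcdh17 probe slide 3 was higher, by 0.27, and the slides overlapped. Over all 61 probes, 30 were lower and 31 higher on slide 3.

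The genes around the protocadherins were described by the same rule. In the chromatin list (CTCF, cohesin and the methylation and silencing factors that act on clustered promoters), 0 of 16 measured genes were over 2-fold higher in Cy-5 and 3 were lower, namely Wapl, which releases cohesin, its partner Pds5a and the DNA methyltransferase Dnmt3b. The share lower, 18.8%, stands beside 13.2% of all named genes. Wapl was the lowest of those detected in Cy-5 throughout, with a median of -1.78, and the histone methyltransferase Ehmt2 was the highest at 0.56. The list median was below 0 on every array, from -0.78 to -0.41. In the list of binding partners and signaling proteins, 9 of 19 were over 2-fold higher in Cy-5 and 0 lower. Its highest gene was Nlgn1, a postsynaptic adhesion protein that gamma protocadherins bind, at a median of 7.39 and, with Cy-3 not detected on any array, at least 58.1-fold. Its lowest was Set, at -0.52.

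Classical cadherins showed 9 of 18 genes higher in Cy-5 and 1 lower, the mesenchymal cadherin Cdh11 at -1.81. The neuronal Cdh8 had a median of 7.71 and, with Cy-3 not detected on any array, hemibrain RNA at least 90.5-fold higher, and Cdh20 had a median of 6.87 with Cy-3 detected on 8 arrays. Of the large cadherins, made up of the Fat, Dachsous and Celsr families and Cdh23, 4 of 9 were higher and 0 lower. Among those detected in Cy-5 throughout, medians ran from Fat3 at 4.44 to Celsr1 at -0.15. These shares of 47.4% for partners, 50% for classical and 44.4% for large cadherins stand beside 33.3% of protocadherins and 16.4% of all named genes.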

How the data were processed

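Total RNA of 10 hemibrains was measured on Agilent mouse arrays with 41174 non-control probes. The authors scanned the slides and deposited Feature Extraction output (10.10.1.1 per the file headers), with linear intensities of both dyes, median and background signals, processed signals after background correction and dye normalization, log10 ratios and flags. Their deposited table of 1 value per probe held log2 ratios (r of at least 0.997 with the log10 ratios put on the log2 scale).

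Log2 Cy-5/Cy-3 was computed here from the processed signals with loess (span 0.3) in limma 3.58.1 (R 4.3.3), without control and outlier spots, and spots of a probe were averaged. A probe was detected in a dye where at least 0.5 of its spots carried the software's flag for well above background. Genes were counted over 2-fold with at most 2 arrays without a value. Probes were named by transcript through RefSeq (GRCm38.p6, names only), which matched 66.0%. An "at least" fold sets the Cy-5 mean against the higher of the probe's Cy-3 signal and the lowest detected Cy-3 signal on each array.

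Slides of 4 arrays were compared with limma and Benjamini-Hochberg adjustment over all probes with complete values. The procedure was tested on simulated data. The number of arrays limits the precision. The limma p-values set the difference between the slides against the spread of the arrays within each slide. The members and gene lists were chosen with earlier results of these data known.

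Genes were named by rule: all non-clustered and C-type genes, the highest and lowest of each clustered subfamily and gene list among the genes detected in Cy-5 throughout, the 3 smallest p between slides and the 3 widest ranges. Other genes were named after their values were seen. The alternatives were no loess, median centring, normexp or a floor with an offset of 50, the deposited table, averaged probes, any probe in place of the brightest, detected probes alone, the software's weaker flag (positive and significant), and leaving out arrays. Normexp was run on median signals, and its fitted background was below 0 in Cy-5 on every array.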

Additional observations from a re-analysis of the deposited data

Results flagged for a closer look

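In 5 of 24 measures (the named genes and 4 subfamily medians), 1 array lay apart from the rest by Dixon's gap test, where chance gives about 1 in 20, or 1.2, for independent measures. These measures share the same arrays, the subfamily medians include named genes, and some genes were named for a wide range. The 5 therefore cannot be weighed against 1.2. C10-434, the array with the weakest Cy-5 signal and the fewest probes detected in Cy-3, was above the other arrays in 4 of the 5: Pcdh10 at 5.83 (others 4.18 to 4.89, n = 8), Pcdh15 at 5.65 (3.74 to 4.53, n = 10), Pcdh17 at 8.69 (6.72 to 7.58, n = 10) and Pcdhac2 at 5.16 (3.21 to 4.10, n = 10). All are log2 Cy-5/Cy-3 of the brightest probe. Each of these genes also had a probe on which C10-434 was not the highest array, and the second probes of Pcdh17 and Pcdh15 read 6.83 and 1.44 there. The remaining measure was Pcdhga4, at 0.45 on C10-437 against 0.74 to 1.00 on the other arrays (n = 10).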

How the results depend on the processing

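Among the named genes and subfamily medians, the sign changed in Pcdh1 alone, which at 0.14 turned to -0.09 without loess and in the deposited table and to -0.11 with median centring. The count of 14 protocadherins over 2-fold in Cy-5 was 12 or 13 without loess, with median centring, with the floor, in the deposited table and with probes averaged, and all of these were among the 14. It was 3 with normexp, whose fitted background was far below 0 on C10-413 (-2836 in Cy-5), and 8 with only probes detected in both dyes, which by construction leaves out genes with a Cy-3 signal near background, such as Pcdh8 and Pcdh20. The count of 2 in Cy-3 was 0 with normexp and 1 with probes detected in both dyes. No share over all named genes stands beside the counts with these settings. The alpha median of 3.24 was 1.71 with normexp, 2.11 with the floor and 2.68 with probes detected in both dyes. The beta median of 1.11 was 0.93 without loess and in the deposited table, 0.94 with median centring, 0.57 with normexp, 0.71 with the floor and 0.92 with probes detected in both dyes. The gamma median of 0.65 was 0.18 with normexp, 0.28 with the floor and 1.47 with probes detected in both dyes, and the delta median of 2.27 was 0.026 with the last. The delta median covers 8 genes and ran from -0.02 to 2.77 over the arrays. Pcdh10 and Pcdh9 had no value on C10-435, its lowest array. No delta gene had a median between 0.14 (Pcdh1) and 4.72 (Pcdh9). The cause was not tested where none is named.

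The count of 28 genes detected was 38 with the positive and significant flag, 28 with any probe of a gene and 36 without C10-434. Between slides, the count of 0 probes was 1 (Pcdhac2) among probes detected in Cy-5 and ran from 0 to 0 with an array left out. The adjusted p of that Pcdhac2 probe was 0.0722 to 1.00 with the other corrections and 0.0816 to 0.176 with an array left out. No paired analysis was possible because the arrays form 1 group and carry no shared replicate numbers.

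Ratios of genes with Cy-3 or Cy-5 near background are limited by that signal.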
